A study of Mus musculus with 16 samples.

Results

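The cytosolic ribosomal protein genes encode the proteins of the ribosomes that translate nuclear messages, and were taken by symbol: Rpl or Rps followed by digits and an optional a or x, together with Rplp0, Rplp1, Rplp2 and Rpsa, with copies marked -ps dropped. The rule found 76 genes among the 27998 in the single-cell matrices, 46 of the large subunit and 30 of the small subunit. Every one of the 76 had UMIs (counted molecules) in every library of the 5 cell classes tested below, the lowest of these sums being 28 UMIs for Rpl12. The study took kidneys from wild type C57BL/6 mice and from Gulo-/- mice of that strain, which lack the last enzyme of vitamin C synthesis. Each genotype had 2 single-cell RNA libraries. Sample titles mark those of wild type CON and those of Gulo-/- VCD, and the labels otherwise name no diet, age or treatment. The kidney tissue was mixed before it was shared out between assays. The labels do not tie the 2 libraries of a genotype to different mice. Sex-linked transcripts, given below, put 1 female and 1 male library in each genotype, so its 2 libraries hold different mice. P-values below rest on library-to-library spread, in which mouse, sex and technical differences cannot be told apart.

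Each ribosome is built from a large and a small subunit, and cells make the proteins of both in matched amounts. Messages of these genes are known for a short stretch of C and T bases at their start, through which growth signals control their translation, and for being among the most abundant messages of many cells. Lymphocytes are known for devoting much of their mRNA to them.

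For 6 members on which the later results turn, a window of 30 bases around the annotated transcription start is shown. Its longest unbroken run of C and T is in capitals, whether or not it lies at the start. Rps28, Rps27, Rpl35 and Rpl15 had the highest mean genotype differences, Rps2 had the lowest, and Rps6 is the substrate of the growth-regulated S6 kinases. Windows are from RefSeq promoters of build GRCm38.p6, read 5′ to 3′ on the gene's strand. Relative to the annotated start, the capitals begin at -21 (Rps28), -2 (Rps27), -7 (Rpl35), -4 (Rpl15), -1 (Rps6) and 4 (Rps2). The capitals of Rps28 thus lie wholly upstream of the start.
Rps28: aggaTTCCTgggtaccgcgtgcggtctcgc
Rps27: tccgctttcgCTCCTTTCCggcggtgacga
Rpl35: gtcggccccgCCCTTTCCTCTTTCTCTCga
Rpl15: tgggagaaagCCTTCTTCCTTTCCTCTggc
Rps6: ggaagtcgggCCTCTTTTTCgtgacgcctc
Rps2: agatctcgcgCTTCTTggagcactataaat
The windows lie at chr17:33824558-33824587 (minus strand), chr3:90213631-90213660 (minus), chr2:39005119-39005148 (minus), chr14:18270971-18271000 (minus), chr4:86857349-86857378 (minus) and chr17:24720057-24720086 (plus), in the order printed. Of the 76 members, 56 had a promoter in that table. A run of at least 8 consecutive C or T within 25 bases of the start was found in 30 of the 56 (53.6%), against 22.2% of the 17999 genes of the matrices with a promoter, and the median longest run was 9 bases against 5. The same search on the opposite strand found a run in 5 of the 56 (8.93%), against 23.8% of all. Rpl35 carried 18 such bases in a row and Rpl15 carried 17, while Rps28 had no run longer than 5, so high and low runs both occur among the members that differed most with genotype. The 30 members with a run had a median of the mean log2 difference over classes of 0.14, and the others 0.17. A match is a description of these letters only.

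Cells were assigned to classes by UMIs of fixed marker genes, none of them a member. Many kept barcodes passed for no class, in fractions given below that differed between the libraries. Proximal tubule (the reabsorbing segment), thick ascending limb, collecting duct principal cell, endothelial, and macrophage and monocyte classes had at least 20 barcodes in each library and were tested. Total UMIs ranged from 10073836 to 88925323 per library, replicate 1 being the shallower one in both genotypes. In the barcodes kept, Xist and Ddx3y gave 1 female and 1 male library per genotype, in opposite order of the replicate numbers. Wild type replicates 1 and 2 shared 807 barcodes where 18.1 were expected by chance, and the shared barcodes were removed from replicate 2. As deposited, wild type replicate 2 held 2168 Xist and 1952 Ddx3y UMIs. Its kept barcodes held 5 and 1796, so its call as male rests on that removal. Gulo had at most 2 UMIs in a library, which cannot check the labels. The single-cell class sizes were very uneven: the principal cell class held 20, 84, 132 and 1086 barcodes and the thick ascending limb class 38, 212, 112 and 3965, in the order wild type 1, wild type 2, Gulo-/- 1, Gulo-/- 2, which is kept throughout.

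The first comparison asked what share of a cell's messages came from the 76 genes in each class. Lymphocytes gave a large share and neutrophils, erythroid cells and the distal tubule small ones. T and NK cells gave 26.8% of their UMIs to these genes in wild type replicate 2 (55 barcodes) and 37.6% in Gulo-/- replicate 2 (119 barcodes), and B cells gave 23.0% (60 barcodes) and 24.8% (122 barcodes) in those libraries. Neutrophils, which are known to make little new protein, gave 4.45% (26 barcodes) and 7.75% (65 barcodes), and erythroid cells of wild type replicate 2, filled with globin messages, gave 4.30% (114 barcodes). These blood cell classes were too small in the other libraries to compare. The distal convoluted and connecting tubule class gave 5.31% (87 barcodes), 6.90% (63) and 7.07% (826) in wild type replicate 2 and Gulo-/- replicates 1 and 2, which in the last of these lay below neutrophils.

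**Figure D1:**
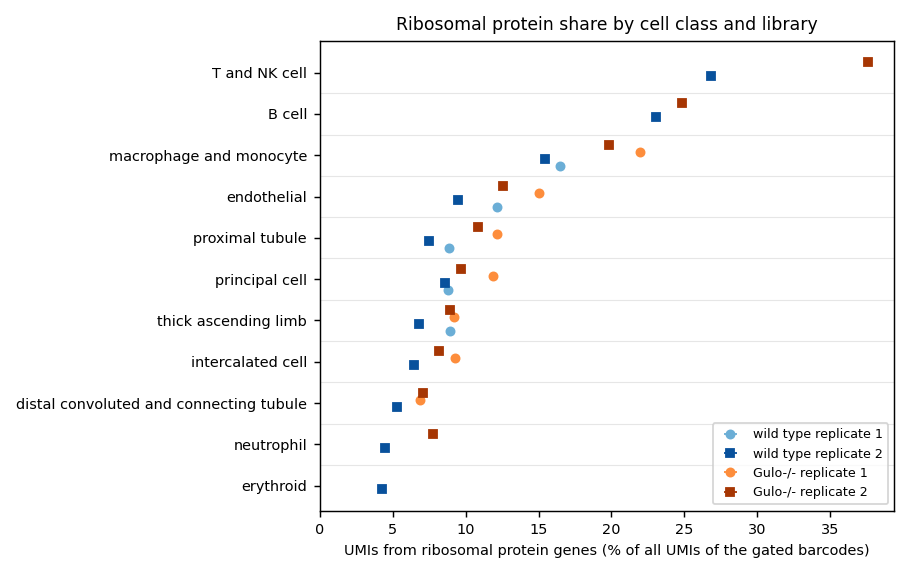
Percent of all UMIs that came from the 76 ribosomal protein genes (horizontal axis) for each cell class (vertical axis) and library, drawn where the library had at least 20 barcodes of the class. Circles are replicate 1 and squares replicate 2, blue is wild type and orange Gulo-/-, and exact binomial intervals for counting error are narrower than the points. Macrophages lie between 15.4% and 22.0% and the tubule classes lower.

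Macrophages and monocytes gave 16.5%, 15.4%, 22.0% and 19.9% of their UMIs to these genes. Proximal tubule cells of the same libraries gave 8.88%, 7.52%, 12.1% and 10.8%, so the macrophage share was the higher by 7.59, 7.92, 9.85 and 9.02 percentage points. The difference averaged 8.60 points ± 1.04 (SD, n = 4 libraries, two-sided exact sign-flip p = 0.125, the smallest that 4 libraries allow). It was also above in 4 of 4 libraries when mitochondrial UMIs were left out (8.23 points ± 0.988).

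Endothelial cells gave 12.2%, 9.49%, 15.0% and 12.6%, which was 2.48 points ± 0.739 above proximal tubule (SD, n = 4 libraries, exact sign-flip p = 0.125) and higher in 4 of 4 libraries. Without mitochondrial UMIs the difference was 1.36 points ± 1.31 and positive in 3 of 4. Principal cells gave 8.76%, 8.60%, 11.9% and 9.70% and thick ascending limb cells 8.90%, 6.81%, 9.24% and 8.94%. Their differences from proximal tubule were -0.108 points ± 0.915 (exact p = 0.625) and -1.37 points ± 1.28 (exact p = 0.25), each positive in 1 of 4 libraries. Classes of 1 library share that library, and mitochondrial UMIs took 9.19% to 20.8% of the total in macrophages against 22.6% to 26.0% in proximal tubule.

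Member by member, macrophages stood above proximal tubule almost throughout. EdgeR's quasi-likelihood test with the library as a block called 71 of 76 members higher and 0 lower, against 23.9% and 27.6% of the 9837 genes tested. The median log2 difference was 0.83 over members and -0.12 over all genes. In CPM (UMIs scaled to a fixed library total), 72 members were higher in 4 of 4 libraries and 0 lower, against 24.7% and 29.9% of genes. Rps9, a small-subunit protein, stood at 902, 858, 1061 and 1319.6 CPM in proximal tubule and at 2619, 2820.2, 2956 and 4097 CPM in macrophages, with no overlap (log2 1.49 ± 0.14, SE, edgeR adjusted p = 1.5e-10). Among the 10 largest differences were also Rps24 (1.38), the X-linked Rps4x (1.35), Rpl3 (1.22), Rps6 (1.21), Rpl12 (1.20) and Rps27 (1.17). Small-subunit members had a median of 1.04 and large-subunit members of 0.78.

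The 5 members that were not called included Rpl41, Rps2, Rpl28 and Rpl24. Rpl41, the shortest of these proteins, had a log2 difference of -0.22 (edgeR adjusted p = 0.144), Rps2 of -0.16 (0.387), Rpl28 of -0.08 (0.696) and Rpl24 of 0.15 (0.369). Rpl41 measured 3710.4, 3308, 6802 and 5118 CPM in proximal tubule and 3268, 3518, 4883 and 5387 CPM in macrophages, where the libraries overlap. Among all members, the class profile, centred on the median member, had wide ranges in Rpl41 (1.07), Rps2 (1.01), Rpl28 (0.92), Rps6 (0.79) and Rps19 (0.78). Rpl41 and Rpl28 were lowest in macrophages against the median member. Rps6 was lowest in thick ascending limb (-0.36) and highest in endothelium (0.43).

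In the other 3 classes the counts depended on the scaling. The median changed sign in endothelium and principal cells, while thick ascending limb kept 0 members higher and a median below 0. TMM factors centre most genes on no change. With them, principal cells had 0 members higher and 73 lower (22.5% and 24.5% of all genes; member median -0.62). Thick ascending limb had 0 higher and 58 lower (17.6% and 20.2%; median -0.50), and endothelium 1 and 26 (31% and 29.7%; median -0.19). Scaling to total UMIs alone was an alternative chosen after seeing the data. Under it principal cells had 4 members higher and 5 lower (45.8% and 12.8% of genes; median 0.02), thick ascending limb 0 and 23 (25.5% and 14%; median -0.20) and endothelium 47 and 3 (48.4% and 19.2%; median 0.37). That scaling put the median of all genes at 0.61 in endothelium, 0.60 in principal cells and 0.26 in thick ascending limb, so the members' medians lay below it in each. In macrophages, 71 were higher and 0 lower under both scalings (25.8% and 25% of genes under the latter). By CPM in 4 of 4 libraries, 51 members were higher and 5 lower in endothelium (47% and 21.2% of genes), 9 and 8 in principal cells (37.7% and 14.4%) and 2 and 38 in thick ascending limb (27.7% and 18.9%).

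**Figure D2:**
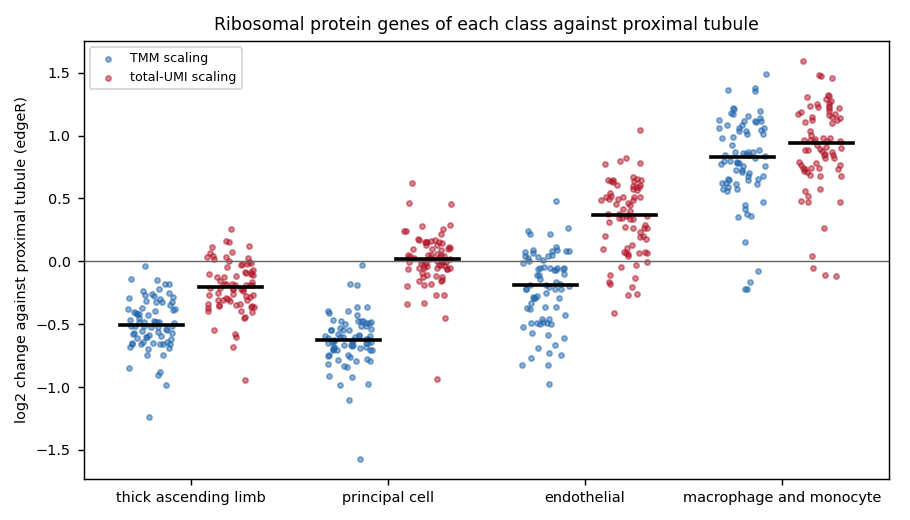
Log2 difference from proximal tubule (vertical axis) of each of the 76 genes in 4 classes, with TMM factors in blue and with total-UMI scaling in red. Points are genes, spread sideways at random, and black bars are medians. The macrophage points lie mostly above 0 under both, while the endothelial median turns from -0.19 to 0.37.

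Rps2, in principal cells, and Rps19, in thick ascending limb, were lower than in proximal tubule under both scalings. Rps2, whose protein sits at the entry tunnel for the message, stood at 1746, 1998, 1895 and 1840.2 CPM in proximal tubule and at 868, 1084, 899 and 1055 CPM in principal cells (log2 -1.57 ± 0.15, SE, edgeR adjusted p = 5.11e-10, and -0.93 with total-UMI scaling). No principal cell library reached a proximal tubule library. Rps19, a protein of small-subunit maturation, stood at 1709, 1553, 2942 and 3104 CPM in proximal tubule and at 847, 958, 1331 and 1629.7 CPM in thick ascending limb (log2 -1.24 ± 0.14, edgeR adjusted p = 8.2e-09, and -0.94 with total-UMI scaling). Each library was lower in the limb than in its own proximal tubule. In principal cells Rps19 (-1.10), Rpl28 (-0.98), Rps28 (-0.98), Rplp0 (-0.92), Rpl10 (-0.91), Rps27a (-0.84) and Rps26 (-0.83) came next with TMM factors, and in thick ascending limb Rps2 (-0.98), Rpl10 (-0.90), Rps27a (-0.88), Rpl28 (-0.85) and Rpl15 (-0.75). In endothelium Rps2 (-0.97), Rpl38 (-0.83), Rpl41 (-0.82), Rps26 (-0.77), Rpl10a (-0.74) and Rplp0 (-0.73) were lowest and Rps6 (0.48, adjusted p = 0.00274) was the member called higher.

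The second comparison was that of genotypes within each class. The share of UMIs from the 76 genes was higher in both Gulo-/- libraries than in both wild type libraries in each of the 5 classes. In proximal tubule it was 8.20% ± 0.969 in wild type and 11.5% ± 0.904 in Gulo-/- (SD, n = 2 each, two-sided exact permutation p = 0.333). In macrophages it was 15.96% ± 0.737 and 20.9% ± 1.49, in endothelium 10.8% ± 1.90 and 13.8% ± 1.74, and in principal cells 8.68% ± 0.111 and 10.8% ± 1.53. In thick ascending limb it was 7.85% ± 1.48 and 9.09% ± 0.212. Each of these 5 permutation p-values was 0.333, the smallest that 2 against 2 libraries allow, so no share could pass a threshold, and classes of 1 library are not independent.

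The thick ascending limb difference was the least separate: 8.90% in wild type replicate 1 lay just below 8.94% in Gulo-/- replicate 2. Without mitochondrial UMIs the genotypes overlapped there, and in the other 4 classes they did not. Replicate 1 also exceeded replicate 2 within each genotype in every one of the 5 classes. Within replicate number, the proximal tubule difference was 3.23 points in replicate 1 and 3.33 points in replicate 2. Over all kept barcodes together the share was 11.6%, 8.91%, 14.3% and 10.2%, which overlap. The libraries hold different mixtures of classes, whose part in this was not tested.

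Other properties also differed between the libraries. Proximal tubule marker UMIs in the endothelial class were 0.0344%, 0.0970%, 0.0348% and 0.0376% of the total and in macrophages 0.0286%, 0.102%, 0.0170% and 0.0412%, so that wild type replicate 2 stood apart and the genotypes did not separate. Mitochondrial UMIs were 13.2%, 20.8%, 9.90% and 9.19% in macrophages and 11.04%, 24.6%, 11.8% and 9.44% in endothelium. Endothelial marker UMIs in the tubule classes were higher in both Gulo-/- libraries, at 0.00136%, 0.00201%, 0.0105% and 0.00741% in proximal tubule, 0.00353%, 0.00301%, 0.00892% and 0.00805% in thick ascending limb and 0.00267%, 0.00288%, 0.00863% and 0.00943% in principal cells. Proximal tubule markers within their own class were lower in both, at 0.819%, 0.818%, 0.772% and 0.680%. The part of these values in the share differences was not tested. In proximal tubule barcodes of 2000 to 4000 UMIs alone the shares were 9.51%, 6.04%, 11.03% and 10.9%, in which both Gulo-/- libraries were again above. In bulk sums of a class, a shift in cell states within it and a shift within each cell cannot be told apart.

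Testing single genes gave few calls. EdgeR called 2 members in thick ascending limb (2.14% of the 6485 genes tested there were called) and 0 in proximal tubule, principal cells, endothelium and macrophages, where 0%, 0.0657%, 0.643% and 0% of all genes were called. At an unadjusted edgeR p under 0.05 there were 9 members in proximal tubule, 10 in thick ascending limb and 11 in principal cells. Endothelium and macrophages had 3 each. The share of all genes under that limit is not given here, so these counts cannot be read as an excess among members. DESeq2 called 1, 0, 0, 1 and 0 members in the same order. The members called by edgeR were Rps28 and Rps27. Member medians of log2 were 0.23, 0.06, 0.25, 0.11 and 0.09 in the order proximal tubule, thick ascending limb, principal cells, endothelium and macrophages, with 65, 46, 70, 53 and 52 of 76 above 0, against medians between -0.02 and 0.02 over all genes. Scaled to total UMIs alone, member medians were 0.37, 0.12, 0.19, 0.26 and 0.32, and the medians of all genes were 0.16, 0.13, -0.01, 0.18 and 0.26, so that in thick ascending limb the members then lay no higher than genes at large.

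Rps28, which sits near the message exit of the small subunit, measured 1029.9, 676, 2142 and 1425 CPM in thick ascending limb. Both Gulo-/- libraries were above both wild type ones (log2 1.03 ± 0.27, SE, edgeR adjusted p = 0.00835, from 2 libraries of each genotype). Rps27, a zinc-finger protein of the small subunit, measured 1249, 872, 2467 and 1695 CPM in that class, again without overlap (log2 0.94 ± 0.26, adjusted p = 0.0222). Both calls were lost with the sex as a block (adjusted p = 0.0699 and 0.109), with DESeq2 (0.143 and 0.213), without a filter on low counts (0.0503 and 0.102), without Gulo-/- replicate 1 (0.734 and 0.888) and without wild type replicate 2 (0.569 and 0.661), and that of Rps27 also without wild type replicate 1 (0.0748), with total-UMI scaling (0.0625), with a gate that ignored the marker share (0.0850) and in barcodes of 2000 to 6000 UMIs (0.0998).

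Outside the thick ascending limb these members were apart without being called. Rps28 measured 1105, 711, 3003 and 2093 CPM in proximal tubule (log2 1.34 ± 0.35, edgeR adjusted p = 0.23), 788, 752, 2176 and 1453 in principal cells (1.30, 0.202), 1144, 798, 3229.9 and 2031 in endothelium (1.33, 0.163) and 2053, 1556, 5498 and 3997 in macrophages (1.19, 0.283). Groups overlapped in none of these. Rps27 measured 1444, 875, 3101 and 2352 CPM in proximal tubule (log2 1.09 ± 0.35, edgeR adjusted p = 0.308) and 3618, 2421, 6965 and 5225 in macrophages (0.81, 0.586). Rpl35, at the exit of the peptide tunnel, measured 969, 662, 1828 and 1634 CPM in proximal tubule (0.94 ± 0.30, 0.31), and was apart in the other 4 classes too. Without wild type replicate 1, edgeR called 12 members higher in proximal tubule, among 801 genes called in all. They were Rps28, Rps27, Rpl37a, Rpl15, Rpl35, Rps21, Rpl38, Rps29, Rpl36, Rpl37, Rpl36a and Rpl39.

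**Figure D3:**
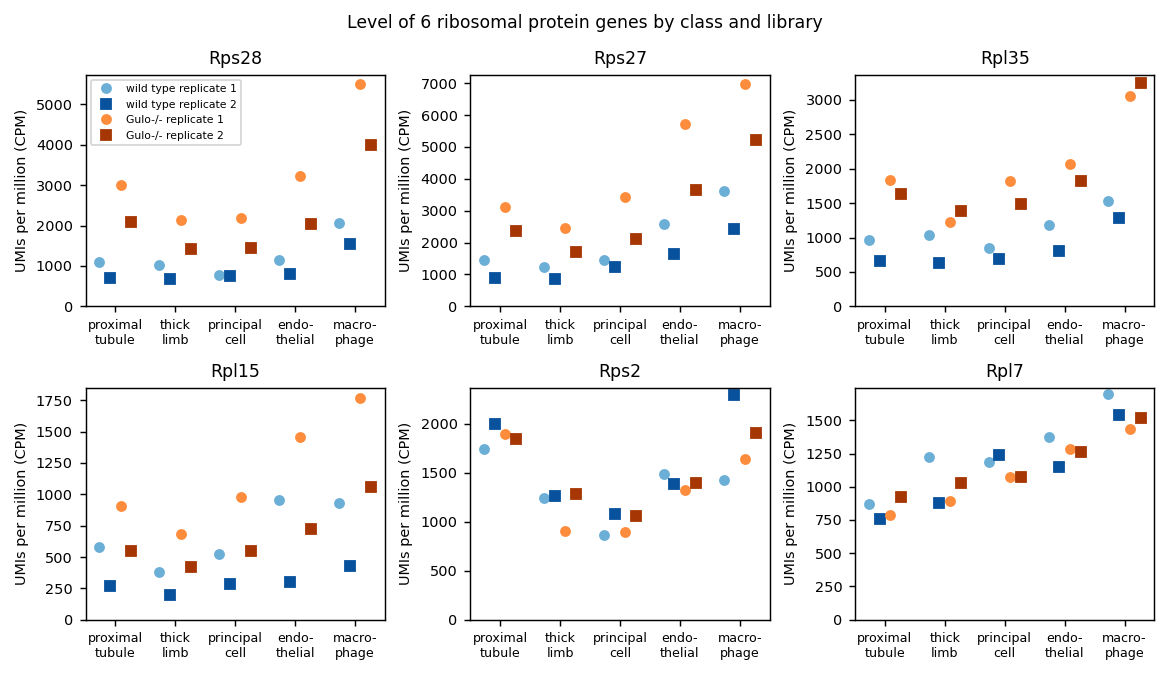
CPM (vertical axes, from 0) of 6 members in the 5 classes and 4 libraries, with wild type in blue, Gulo-/- in orange, circles for replicate 1 and squares for replicate 2. For Rps28, Rps27 and Rpl35 both orange points lie above both blue ones in every class, and for Rps2 and Rpl7 they are mixed in most.

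The differences were uneven over the 76. Averaged over the 5 classes, log2 differences ran from -0.18 (Rps2) to 1.24 (Rps28), with a median of 0.13. Of the 76, 52 lay between -0.2 and 0.2, 8 between 0.2 and 0.4, and 16 above 0.4. These 16 were Rps28 (1.24), Rps27 (0.997), Rpl35 (0.90), Rpl15 (0.85), Rps29 (0.72), Rpl37a (0.71), Rpl38 (0.70), Rpl36 (0.69), Rpl37 (0.66), Rps21 (0.61), Rps19 (0.60), Rpl39 (0.57), Rpl27 (0.55), Rpl41 (0.51), Rpl36a (0.48) and Rplp0 (0.43). Rpl41, Rpl39, Rps29, Rpl38, Rpl37 and Rps28 are known as some of the smallest ribosomal proteins. That does not hold for all 16, as for Rplp0, and protein size was not compared with the differences over the 76. At the other end Rps2 (-0.18), Rpl7 (-0.17), Rpl7a (-0.15) and Rpsa (-0.13) lay lowest. In all, 34 members were positive in 5 of 5 classes and 2, among them Rpl7, were negative in 5 of 5. The share of all genes with the same sign in 5 of 5 is not given here, and the classes come from the same libraries. These counts therefore cannot be read as an excess among members.

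**Figure D4:**
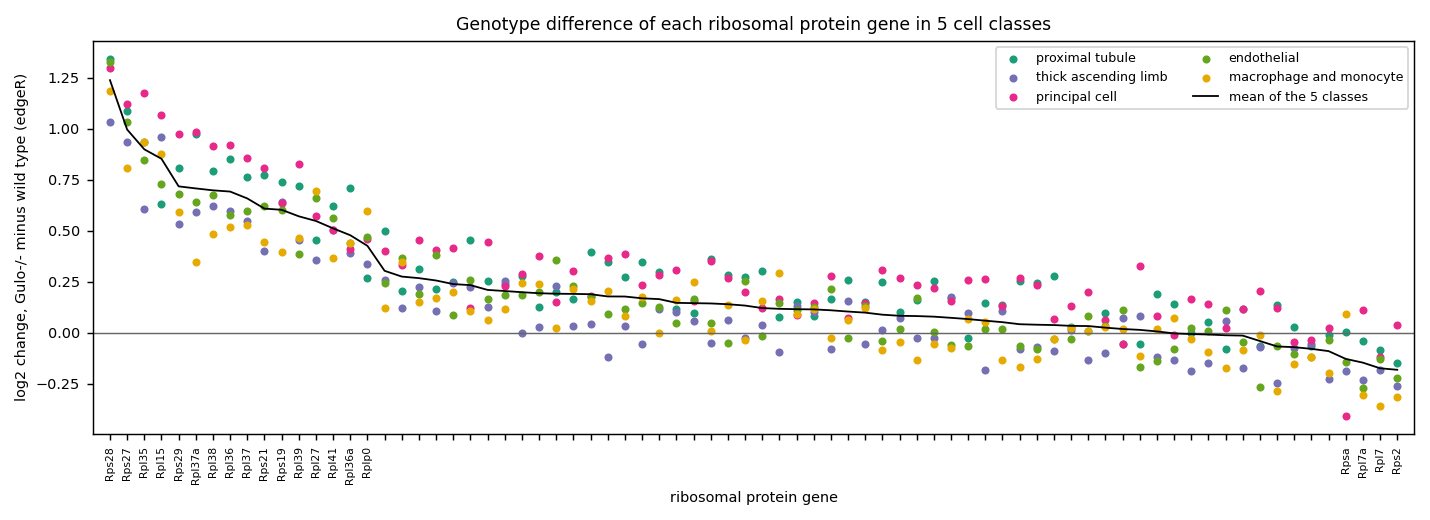
Log2 difference between Gulo-/- and wild type (vertical axis) of each of the 76 genes (horizontal axis, ordered by the mean over classes, black line), with 1 coloured point per class and names at both ends of the order. The 16 genes at the left have all points above 0.25, from Rps28 with a mean of 1.24, and the rest scatter about 0.

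By levels in CPM, 55 members in proximal tubule, 19 in thick ascending limb, 34 in principal cells, 30 in endothelium and 54 in macrophages had both Gulo-/- libraries above both wild type ones. Over all genes tested the shares were 32.1%, 24.3%, 20.1%, 28.9% and 30.8%. The reverse held for 0, 0, 2, 0 and 1 members, against 14%, 11.5%, 17.6%, 12.4% and 9.01% of all genes. With CPM taken over UMIs outside mitochondrial genes, 54, 14, 32, 25 and 34 members were higher (33.1%, 18.3%, 18.1%, 23.3% and 24.3% of genes) and 0, 5, 4, 5 and 2 lower (13.9%, 17.9%, 19.6%, 18.6% and 12%). In thick ascending limb the members' share higher (14 of 76) was then near that of all genes. In all 5 classes at once 13 members were higher: Rpl24, Rpl32, Rpl35, Rpl36, Rpl36a, Rpl37, Rpl37a, Rpl41, Rps18, Rps19, Rps27, Rps28 and Rps29. Among the 3330 genes tested in all 5 classes that share was 2.37%. The reverse held for 0 members and 0.45% of genes. With CPM outside mitochondrial genes, 8 members were higher in all 5 classes, against 1.77% of genes higher and 0.571% lower: Rpl32, Rpl35, Rpl36, Rpl36a, Rpl41, Rps19, Rps27 and Rps28.

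Among the most abundant members, Rpl41 measured 3710.4, 3308, 6802 and 5118 CPM in proximal tubule (log2 0.62 ± 0.28, edgeR adjusted p = 0.412) and Rps29 measured 2298, 1459, 4172 and 3116 CPM (0.81 ± 0.33, adjusted p = 0.391). Rpl37a, with 2041, 1283, 4086 and 3149 CPM, had a difference of 0.97 ± 0.33 (adjusted p = 0.332), and Rpl36, with 1269, 855, 2362 and 1879 CPM, of 0.85 ± 0.32 (adjusted p = 0.364). Rps19 measured 1709, 1553, 2942 and 3104 CPM (0.74 ± 0.25, adjusted p = 0.325). In each of these 5 genes the Gulo-/- libraries were above the wild type ones without being called.

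The acidic stalk of the large subunit, which recruits elongation factors, is made of Rplp0, Rplp1 and Rplp2. Rplp0 measured 1364, 886, 1303 and 1731 CPM in proximal tubule and 2186, 1700.2, 2823 and 4079 in macrophages, and its log2 difference was between 0.27 and 0.60 in the 5 classes. Rplp1 measured 1967, 1487, 2719 and 1792 CPM in proximal tubule, and its differences ran from -0.13 to 0.25. Its genotypes overlapped. Rplp2, at 1223, 1034, 1814 and 1194 CPM, had differences from -0.00 to 0.29. None of the 3 was called in any class.

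Rpl5 and Rpl11 form the particle with 5S RNA that can bind Mdm2. Rpl5 measured 546, 402, 676 and 578 CPM in proximal tubule (log2 0.26, edgeR adjusted p = 0.76), and Rpl11 measured 1245, 1077, 1357 and 1411 CPM (0.10, adjusted p = 0.898). Rps6 measured 837, 809, 866 and 1239 CPM (0.20, adjusted p = 0.797), with Gulo-/- replicate 2 standing alone. Rpsa, also known as a laminin receptor, measured 633, 639.9, 777 and 628 CPM there (0.00) and overlapped.

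On the X chromosome, Rpl36a measured 727, 518, 1196 and 1063 CPM in proximal tubule (log2 0.71, edgeR adjusted p = 0.39) and Rpl39 measured 1155, 836, 2127 and 1498 CPM (0.72, 0.414). Rps4x measured 1049, 870.5, 1228 and 1359 CPM (0.28, 0.699). Rpl10 measured 1769.9, 1656, 1815 and 1837 CPM (-0.06, 0.951). In CPM the genotypes did not overlap in any of the 4, though by a narrow margin in Rpl10. None of the 4 was called in any class by genotype, and all 4 were called higher in macrophages than in proximal tubule.

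A class-by-genotype interaction, with the library as a block, asked whether the genotype difference itself differed from that in proximal tubule. EdgeR called 0 of 76 members in each of the 4 classes, where 10490 genes were tested and the share called was 0.153% in thick ascending limb, 0.648% in principal cells, 0.934% in endothelium and 0.114% in macrophages. At an unadjusted p under 0.05 there was 1 member, in macrophages, and the lowest adjusted p was 0.548. Median interaction terms were -0.02, 0.21, -0.03 and -0.16.

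Copies of these genes that the symbol rule drops behaved differently from the members they copy. The matrices list 16 symbols ending in -ps and Rpl6l, of which 12 passed the filter on low counts and had positive log2 genotype differences in 5 of 5 classes. Rpl10-ps3 measured 191, 138, 665 and 333 CPM in proximal tubule, where Rpl10 itself hardly differed, and so took 9.74%, 7.71%, 26.8% and 15.3% of the UMIs of the pair. Rpl9-ps6 took 2.50%, 4.49%, 12.4% and 9.65% of its pair and Rpl6l took 1.05%, 2.79%, 6.01% and 7.24%. Both Gulo-/- libraries exceeded both wild type ones for all 12 in proximal tubule, endothelium and macrophages, for 11 in thick ascending limb and for 9 in principal cells. The shares of all genes apart in that direction are given above by class. Copies scarce in wild type could pass the filter on Gulo-/- counts alone, so these counts are a description only.

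The median log2 difference of these 12 was 1.82 in proximal tubule, 1.52 in thick ascending limb, 1.54 in principal cells, 1.63 in endothelium and 1.69 in macrophages. The members they copy had medians of 0.14, 0.03, 0.32, 0.17 and 0.09. Thick ascending limb had 7 called copies, among them Rpl6l (log2 2.27 ± 0.43, edgeR adjusted p = 4.06e-05) and Rpl36-ps3 (3.71 ± 0.87, adjusted p = 0.00193). Their UMIs there were 2, 18, 20 and 2096 for Rpl6l and 0, 2, 11 and 437 for Rpl36-ps3. Wild type counts of Rpl36-ps3 thus lay near 0, and it passed the low-count filter on the Gulo-/- libraries alone. The share of all genes called in that class is given above beside the members. Rpl6l was also called in endothelium (2.31 ± 0.31, adjusted p = 0.0196), and Rps27rt, a near copy of Rps27, in thick ascending limb (1.71 ± 0.35, adjusted p = 2.13e-04). Together the 17 copies held 0.571%, 0.696%, 1.83% and 1.17% of the UMIs of members and copies in proximal tubule and 0.582%, 0.753%, 2.33% and 1.40% in macrophages. Reads of a member and its copies cannot be told apart where their sequences are the same, and the counting rule for such reads is not stated in the labels or headers. Nor do the labels or headers say whether the libraries of both genotypes were sequenced and counted alike. A difference there would bear on every genotype value given for the members. Neither was tested.

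**Figure D5:**
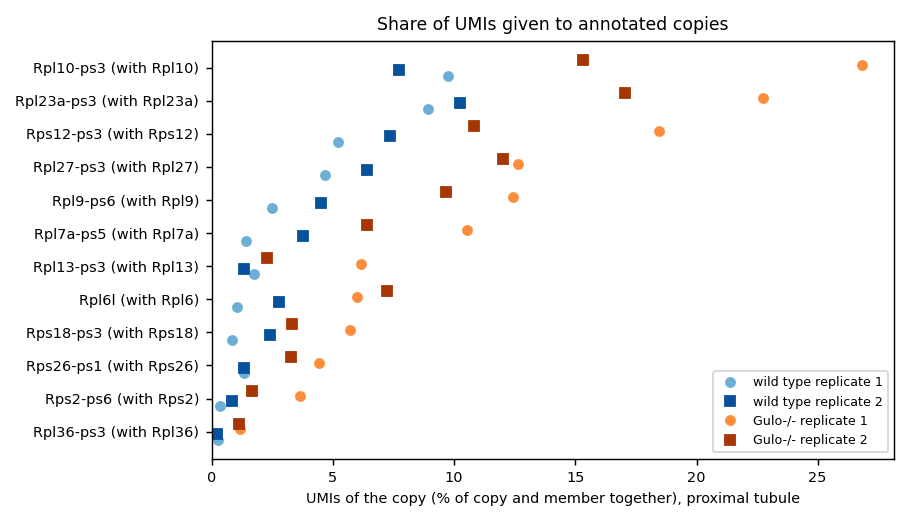
UMIs of 12 annotated copies as a percent of copy and member together (horizontal axis) in proximal tubule, with each copy and its member on the vertical axis, wild type in blue, Gulo-/- in orange, circles for replicate 1 and squares for replicate 2. The orange points lie to the right of the blue ones, as for Rpl10-ps3 with 26.8% and 15.3% against 9.74% and 7.71%.

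Other genes of ribosome making and translation were read against the low share of calls over all genes, between 0% and 2.14% by class, beside which 0 calls in a short list says little. Of 18 translation factors and other messages listed for a pyrimidine-rich start, edgeR called 0 by genotype in any of the 5 classes. Their medians lay between -0.12 and 0.00. The search at the start found a run in 8 of the 14 genes of this list with a promoter (57.1%). EdgeR also called 0 ribosome assembly factors (12 to 25 tested by class) and 0 growth regulators (10 to 22 tested). Mitochondrial ribosomal proteins, which build the separate ribosome of mitochondria, had 0 called in any class (66 to 76 tested). Their median in proximal tubule was -0.40 with 8 of 76 positive, against 0.23 and 65 positive among the 76 cytosolic members. Against proximal tubule, macrophages had 11 of 18 translation factors called higher and 0 lower, among them Pabpc1 (log2 1.36) and Eef1a1 (0.70), and 0 of 76 mitochondrial ribosomal proteins called higher and 54 lower. Of the growth regulators, 7 of 22 tested were called higher and 2 lower in macrophages, with Myc at 2.96 and Eif4ebp1 at 2.18. The background for these macrophage counts is the share of all genes called in that contrast, given above beside the members. The 7 of 22 growth regulators called higher lay near that share.

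Bisulfite sequencing of the same kidneys is represented by the authors' deposited table. It lists 86510 regions that differ in methylation and gives the mean methylation level of sides 1 and 2 without saying which genotype a side is, and no values per sample. It annotated 143 regions to 43 members, of which 82 were distal intergenic and 24 lay in promoters of 20 members. A promoter region was listed for 26.3% of members, 21% of the 27933 gene symbols and 33.9% of the 9619 genes tested in proximal tubule. Off the X chromosome it was 22.2% of members, 24.7% of all and 34.1% of tested genes. Of the 27933 symbols, only 890 were placed on X and 21904 on other chromosomes, while every member was placed. The 21% therefore includes unplaced symbols that the shares on and off X leave out, and it is not a like background for the 26.3% of members. Lower on side 1 in the authors' deposited table were 20 of the 24 (83.3%) and 78.5% of the 7867 promoter regions of all genes. Each of the 4 X-linked members had a promoter region, as did 40.9% of all X-linked genes and 71.3% of the 268 tested in proximal tubule.

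Rps21 had the widest gap among promoter regions in the authors' deposited table, at chr2:180255505-180255993 of mm10, 11 CpGs with levels of 0.295 and 0.639. Rps4x, at chrX:102189418-102189820 just before its start, had 0.240 and 0.530 over 9 CpGs. Rpl10, at chrX:74271087-74271967, had 0.268 and 0.475 over 30 CpGs, and Rpl36a, at chrX:134585705-134586099, had 0.209 and 0.386 over 26 CpGs, both in the authors' deposited table. Rpl35, the third by mean genotype difference, had 0.120 and 0.239 over 16 CpGs at chr2:39004778-39004955, just inside the gene. The authors' deposited table lists 4 promoter regions as higher on side 1, those of Rpl22, Rpl41, Rpl7 and Rps10. No member stands in the deposited marker table of the authors' 13 clusters (0 of 76 in 1919 rows).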

How the data were processed

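In the deposited single-cell matrices each value is a raw UMI count of 1 gene in 1 barcode (counting tool: not given in the sources used here). Submitters' processing notes name mm10, Seurat 2.3.4 and MACS2 2.1.2. In the authors' deposited methylation table, levels are a fraction (0 to 1), their difference is a score between -1 and 1, and CpGs are a count. Barcodes with at least 500 UMIs, 200 genes and at most 50% mitochondrial UMIs were kept. A class needed at least 2 markers, 3 marker UMIs and 0.2% of UMIs from its markers (3, 5 and 0.5% for proximal tubule). Barcodes passing for more than 1 class other than proximal tubule were left out. So were those with more proximal tubule marker UMIs than marker UMIs of the other class they passed for. A barcode that otherwise passed for proximal tubule and 1 other class stayed in the other class. No doublet caller was run. UMIs were summed per library and class and tested with edgeR 4.0.16 (TMM, filterByExpr, quasi-likelihood, Benjamini-Hochberg over all genes, adjusted p under 0.05), checked on simulated data, and with DESeq2 1.42.0 as an alternative. On the simulated data the genotype test in proximal tubule recovered 19% of 2-fold and 94% of 4-fold changes. A lack of calls by genotype therefore says little about differences of 2-fold or less. Shares used exact permutations. Members, lists and the rule for named genes were chosen with earlier results of these data known. The rule took up to 10 called members per direction that did not overlap, those of largest change and level where fewer than 6 were called, and members of stated roles. UMI counts were not divided by gene length, so levels of different genes are not compared. m6A and bulk RNA samples were not analysed here. Values of a few single members are not reported here.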

Additional observations from a re-analysis of the deposited data

Results flagged for a closer look

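Rpsa was the member whose libraries separated in opposite directions in different classes. In macrophages both Gulo-/- libraries (1793 and 1689 CPM) lay above both wild type libraries (1425 and 1366), and in principal cells both Gulo-/- libraries (569 and 521 CPM) lay below both wild type libraries (774 and 732), with a log2 difference of -0.41. The difference between these 2 classes was not tested. Against proximal tubule, the interaction of Rpsa was 0.12 ± 0.31 in macrophages and -0.20 ± 0.32 in principal cells (SE, edgeR adjusted p = 1 and 0.882).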

How the results depend on the processing

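The genotype difference in share kept its direction under every alternative run. The principal cell share minus proximal tubule turned positive with a stricter gate (1.11 points) and ran from -0.507 to 0.235 points when 1 library was left out. Counts of members called against proximal tubule moved as follows, with the percent of all genes called the same way in parentheses. Members higher in endothelium numbered 4 with RLE factors (33.0%), 47 with total-UMI scaling (48.4%), 22 of 76 with the stricter gate (28.8%, so near the background) and 0 in barcodes of 2000 to 6000 UMIs (31.6%), with a gate ignoring marker share (30.01%) and with no low-count filter (19.2%), and 0 to 1 without 1 library. Members lower there numbered 41 with TMM factors computed without members (33.2%), 71 ignoring marker share (35.2%), 3 with total-UMI scaling (19.2%), 1 with the stricter gate (24.8%) and 41 without the deepest 5% of barcodes (33.7%). In macrophages 39 were higher ignoring marker share (23.3%) and 46 with no filter (13.2%), and lower calls numbered 3 with TMM factors without members (32.4%), 5 ignoring marker share (31.6%), 3 with no filter (21.3%), 3 without the deepest barcodes (33.4%) and 0 to 3 without 1 library. In principal cells total-UMI scaling gave 4 higher (45.8%) and 5 lower (12.8%) and the stricter gate 1 (19.97%) and 3 (17.8%). In thick ascending limb 35 were lower in the 2000 to 6000 UMI barcodes (18.2%), 23 with total-UMI scaling (14%) and 38 to 56 without 1 library, the lowest without Gulo-/- replicate 1 (16.8%).

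By genotype, endothelial calls numbered 1 with DESeq2 (1.73% of all genes called), 2 with no filter (2.53%), 1 with total-UMI scaling (1.40%) and 0 to 2 without 1 library (2 without Gulo-/- replicate 2, 2.06%). Principal cells had 5 with no filter (1.23%) and 0 to 2 without 1 library (2 without Gulo-/- replicate 2, 0.677%). Proximal tubule had 1 with DESeq2 (1.33%), 2 with no filter (3.56%) and 0 to 12 without 1 library (12 without wild type replicate 1, 7.44%, and 1 without wild type replicate 2, 2.67%). Thick ascending limb had 0 with DESeq2 (0.552%), 1 in the 2000 to 6000 UMI barcodes (0.694%), 1 ignoring marker share (1.08%), 0 with no filter (0.923%), 1 with total-UMI scaling (2.14%), 0 with the sex block (1.08%) and 0 to 3 without 1 library (0 without Gulo-/- replicate 1 or wild type replicate 2, 3 without Gulo-/- replicate 2). The replicate block gave 0 members in proximal tubule, 2 in thick ascending limb, 0 in principal cells, 1 in endothelium (3.33%) and 1 in macrophages (3.53%). With only 2 pairs, same-numbered libraries share a number: the correlation of their deviations was -0.093, -0.010, -0.064, 0.149 and 0.233 in that order. Calls of the interaction stayed at 0 under every alternative run. The cause of these changes was not tested. The gate ignoring marker share, total-UMI scaling, the UMI band and adding copies to the share were chosen after seeing the data. The stricter gate left too few thick ascending limb barcodes, a 25% mitochondrial limit too few of that limb and of principal cells, and the UMI band too few principal cells, so these gave no value. A lone library was assumed to vary like the others. Depth limits precision: 20 barcodes was the smallest class sum tested.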
